A study of Homo sapiens and Mus musculus with 33 samples.

Results

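The genes of the cyclin-dependent kinase (CDK) inhibitors were followed through the RNA and ChIP-seq tables of HCT116 cells and mouse colon epithelium. They were chosen by name: CDKN1A, CDKN1B, CDKN1C, CDKN2A, CDKN2B, CDKN2C and CDKN2D. All 7 were found among the 35805 genes of the HCT116 RNA table, and their 7 mouse counterparts among the 25965 genes of the colon RNA table. Every peak in or within 2 kb of these genes was added, which gave 11 of 40266 peaks in HCT116 cells, 10 of 30338 H3K18cr peaks in colon and 11 of 27035 H3K4me3 peaks in colon.

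HCT116 is an established human colorectal carcinoma line. The cells received 5 µM MS275 (entinostat, an inhibitor of class I histone deacetylases) for 18 h, or DMSO, its solvent, for the same time. RNA-seq was done on 4 libraries per treatment, and ChIP-seq on 3 libraries per treatment for H3K18cr (crotonylated lysine 18 of histone H3) and 3 for H3K18ac (the acetylated form of the same residue), with 1 input per treatment. The colon samples came from the epithelium of untreated C57BL/6 mice, all male, whose age the sources used here do not give: 3 RNA libraries, 2 H3K18cr libraries with 2 inputs, and 3 libraries of H3K4me3 (a histone mark of gene starts) with 1 input. The question the treatment addresses is how the marks and the RNA of these genes differ once class I deacetylases are inhibited. The study calls the RNA replicates of HCT116 cells and colon, and those of H3K4me3, biological. It describes the colon H3K18cr libraries as from 2 mice, while its ChIP protocol pools colons, so how animals map to these libraries is not settled. For H3K18cr in HCT116 cells the methods state fewer replicates than the 3 libraries per treatment that the labels give, and all 3 were used. The RNA libraries held 35608533 to 53415604 counts in HCT116 cells, and the p-values measure only the spread between these samples of 1 cell line.

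CDK inhibitors are small proteins that bind CDKs or their complexes with cyclins and hold back entry into S phase. The CIP/KIP proteins p21 (CDKN1A), p27 (CDKN1B) and p57 (CDKN1C) bind many cyclin-CDK complexes. The INK4 proteins p16 (CDKN2A), p15 (CDKN2B), p18 (CDKN2C) and p19 (CDKN2D) bind CDK4 and CDK6 and keep cyclin D from them. CDKN2A also gives ARF, an unrelated protein read from an upstream start. In the gut CDKN1A is known for its expression in cells that leave the cycle, while CDKN1B is controlled largely through the breakdown of its protein.

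The sequences just before the gene starts are shown because each lies inside a peak whose H3K18cr and H3K18ac were measured. They are the 150 bases before the start, 5′ to 3′ on the strand of the gene, from the RefSeq promoter table of GRCh38.p14, which held 6 of the 7 genes (CDKN1C has no entry). Capitals mark the GC box, searched as GGGCGG and, for the other strand, CCGCCC, with overlapping matches counted.

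CDKN1A (chr6:36678564-36678713, plus strand): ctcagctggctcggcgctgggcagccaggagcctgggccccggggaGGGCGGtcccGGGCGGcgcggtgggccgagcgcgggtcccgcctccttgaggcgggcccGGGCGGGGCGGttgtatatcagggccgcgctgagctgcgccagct

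CDKN1B (chr12:12717218-12717367, plus strand): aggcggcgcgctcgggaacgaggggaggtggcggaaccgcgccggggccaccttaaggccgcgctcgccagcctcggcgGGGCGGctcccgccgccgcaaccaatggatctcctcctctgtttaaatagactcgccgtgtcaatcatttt

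CDKN2B (chr9:22009306-22009455, minus strand): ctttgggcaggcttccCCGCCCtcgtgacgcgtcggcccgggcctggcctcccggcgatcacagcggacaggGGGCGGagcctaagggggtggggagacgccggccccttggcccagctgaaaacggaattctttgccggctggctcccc

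CDKN2A, start of ARF (chr9:21995325-21995474, minus strand): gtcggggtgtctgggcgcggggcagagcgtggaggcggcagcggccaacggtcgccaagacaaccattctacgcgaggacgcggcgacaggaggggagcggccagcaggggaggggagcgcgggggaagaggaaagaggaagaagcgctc

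CDKN2A, start of p16 (chr9:21974858-21975007, minus strand): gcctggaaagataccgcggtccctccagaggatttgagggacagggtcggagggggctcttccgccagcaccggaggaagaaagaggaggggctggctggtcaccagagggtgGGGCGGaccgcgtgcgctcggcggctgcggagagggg

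The CDKN1A window held 4 GC boxes and was 79.3% G or C. The CDKN2B window held 2 boxes, the CDKN1B window and the p16 window of CDKN2A 1 each, and the ARF window 0. Over the 9 windows of the 6 genes, 7 held a GC box, against 36.8% of 35116 promoter windows of the same length, and 18.3% of all windows held more than 1. The letters TATAAA or their reverse complement were in 0 of the 9 windows and in 6.71% of all windows. A match of letters does not show that a factor binds.

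In HCT116 cells the RNA of CDKN2B and CDKN1A was higher with MS275 and that of CDKN1B lower, in every one of the 4 pairs of same-numbered libraries. The differences passed the test only in the fit that treats the replicate numbers as pairs, and the groups overlapped for all 7 genes (they did not for 3.48% of all genes tested on the higher side and 1.9% on the lower). The other 4 genes did not pass in either fit. RNA levels in a bulk library cannot tell fewer expressing cells from less RNA per cell. Values are given in CPM, counts scaled to library size after TMM normalization, for replicates 1 to 4 in order.

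CDKN2B, the gene of p15 and a known target of TGF-beta signalling, had the largest difference of the 7. Its RNA stood at 5.67, 12.5, 6.12 and 13.7 CPM in the DMSO libraries and at 13.4, 25.1, 11.8 and 21.4 CPM with MS275. The counts behind these values ran from 212 to 1037. The 2 highest MS275 libraries lay above all DMSO libraries, while the lowest MS275 libraries lay among the DMSO values. Within the pairs the log2 difference was 1.24, 1.00, 0.94 and 0.64. With the replicate block the log2 difference was 0.95 ± 0.16 (SE), a 1.94-fold higher level, at an adjusted p = 0.0025 from edgeR's quasi-likelihood test with Benjamini-Hochberg adjustment. Without the block it was 0.91 ± 0.36 at an adjusted p = 0.656.

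CDKN1A RNA was measured at 156, 177, 227 and 199 CPM with DMSO and at 205, 210.1, 295 and 215 CPM with MS275. Replicate 3 was the highest library of each group, and the other 3 MS275 libraries lay below its DMSO value. The log2 differences within the pairs were 0.40, 0.25, 0.38 and 0.11. The block gave 0.28 ± 0.07 (SE), or 1.22-fold, with an edgeR adjusted p = 0.0167. Without the block the edgeR adjusted p was 0.870.

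CDKN1B RNA moved the other way. It was 58.6, 63.7, 39.4 and 64 CPM with DMSO and 38.4, 60.1, 29 and 46.2 CPM with MS275. In replicate 2 the libraries were nearly level, and replicate 3 was the lowest library of each group. The log2 differences within the pairs were -0.61, -0.08, -0.44 and -0.47. With the block the difference was -0.40 ± 0.10 (SE), 0.757 times the DMSO level, with an edgeR adjusted p = 0.0221. Without it the edgeR adjusted p was 0.875.

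These 3 calls of 7 compare with 14.4% of the 14961 genes tested with the block (7.83% higher and 6.55% lower), and all 7 passed the filter on low counts. Without the block 0 of the 7 were called, and the same fit called 1 gene in the table (0.00668%). At an unadjusted p under 0.05 that fit held 1 of the 7, CDKN2B, against 6.60% of all genes, and DESeq2 called none of the 7 and 161 genes in all (0.985%). A higher CPM in all 4 pairs was found for 2 of the 7 genes and for 19.2% of genes tested, and a lower CPM in all 4 pairs for 1 of the 7 and for 17.5%. With replicate number 1 left out of the block fit only CDKN2B was called (1 of 7). Without number 2 CDKN2B and CDKN1B were (2 of 7), and without number 4 CDKN2B and CDKN1A were (2 of 7). Over all genes these fits called 968 of 15055, 994 of 15198 and 1037 of 15087, against 2151 of 14961 with all numbers. CDKN2B had an edgeR adjusted p of at most 0.0269 in them.

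**Figure D1:**
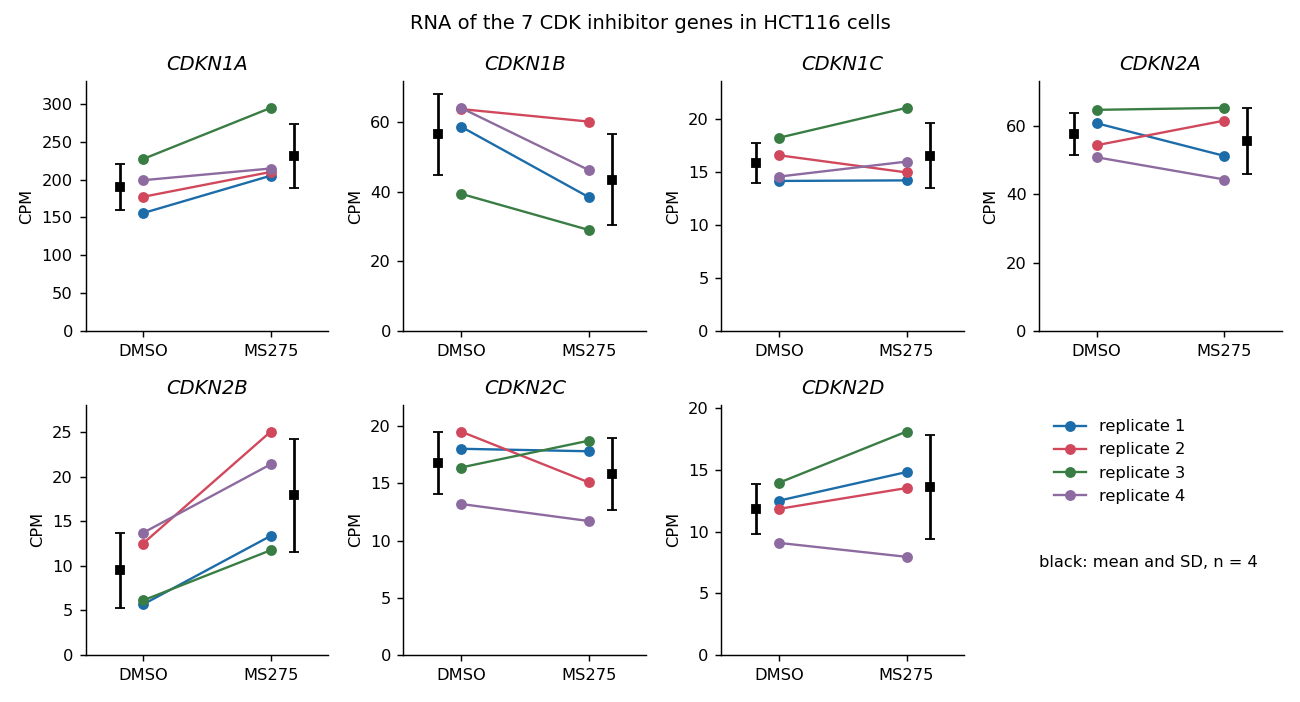
RNA of the 7 genes in HCT116 cells, in CPM (vertical axes from 0), for each DMSO and MS275 library. Coloured lines join libraries of the same replicate number, and black squares with bars are the mean and SD of 4 libraries. The lines of CDKN2B and CDKN1A rise and those of CDKN1B fall in all 4 pairs.

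The 4 remaining genes had log2 differences near 0 that changed sign from pair to pair. CDKN1C, the imprinted gene of p57, had 14.2 to 18.2 CPM with DMSO and 14.2 to 21.1 CPM with MS275. CDKN2A had 50.8 to 64.6 CPM with DMSO and 44.3 to 65.2 CPM with MS275. For CDKN2C, the gene of p18, the ranges were 13.2 to 19.5 CPM and 11.7 to 18.7 CPM. For CDKN2D they were 9.09 to 14.0 CPM and 7.96 to 18.1 CPM. With the block their log2 differences were 0.05 ± 0.14, -0.06 ± 0.10, -0.09 ± 0.14 and 0.16 ± 0.16 (SE) in that order, with edgeR adjusted p from 0.566 to 0.859.

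Genes that share sequence space with CDKN2A and CDKN2B limit what their counts mean. The table lists a clone-named gene on the opposite strand across both genes (393 to 2720 counts per library) and CDKN2B-AS1, also opposite (0 to 31 counts). The library kit keeps strand, but the sources used here do not give the strand setting of the counting, so reads of these genes and of CDKN2A or CDKN2B may not be fully separated. The clone-named gene had a log2 difference of 0.21 ± 0.11 (SE) with the block, at an edgeR adjusted p = 0.225. Reads of p16 and ARF share the last exons of CDKN2A and were counted together.

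Levels can be set side by side only per length, here as CPM per kb of exon within the interval of each gene. With DMSO the order was CDKN1A at 63.3 ± 10.2 (SD, n = 4), CDKN2A at 14.8 ± 1.60, CDKN1B at 11.6 ± 2.39, CDKN2D at 7.89 ± 1.4, CDKN1C at 6.41 ± 0.761, CDKN2C at 5.56 ± 0.90 and CDKN2B at 2.37 ± 1.0. CDKN1A stood clear of the rest, above 96.0% of the 15855 genes with a count and an exon length. Neighbours from CDKN2A down to CDKN2C overlapped each other, whereas CDKN2B lay below CDKN2C with no overlap. With MS275, CDKN1A (77.1 ± 14.2) again stood clear of the rest, CDKN2D (9.06 ± 2.82) and CDKN1B (8.95 ± 2.71) overlapped, and CDKN2B (4.48 ± 1.60) overlapped CDKN2C (5.25 ± 1.0).

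Among the genes around the inhibitors, the same contrast between the fits was seen. None of the genes listed below passed without the block (0 called in each list). Of the CDKs, cyclins and related partners that the inhibitors bind, 2 of 11 tested were higher and 4 lower with the block, where 7.83% of all genes were higher and 6.55% lower; the same shares apply to the lists that follow. CDK6, a target of the INK4 proteins, was higher with MS275 (74.0 ± 6.88 CPM with DMSO and 99.9 ± 11.4 CPM with MS275, SD, n = 4; log2 0.43 ± 0.08, edgeR adjusted p = 0.0049). CDK4, the other INK4 target, was lower (242 ± 42.7 and 192 ± 38.3 CPM; log2 -0.33 ± 0.06, edgeR adjusted p = 0.0054). Each of these was seen in 4 of 4 pairs.

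In the RB and E2F family, through which the cyclin D kinases act, 0 of 13 genes were higher and 2 lower. They were TFDP1, a partner of the E2F factors (log2 -0.32 ± 0.06), and E2F4, an E2F of resting cells (log2 -0.29 ± 0.07), with edgeR adjusted p of 0.0055 and 0.0181. Of 18 upstream regulators, 3 were higher. FOXO3, a factor that drives CDKN1B, was higher (log2 0.58 ± 0.10), as was KLF6 (log2 0.30 ± 0.08), a factor known to act on CDKN1A. BMI1, a Polycomb protein known to repress CDKN2A, was also higher (log2 0.34 ± 0.09). Of 12 genes of inhibitor turnover, 0 were higher and 4 lower, among them RBX1 (log2 -0.44 ± 0.09) and CUL1 (log2 -0.30 ± 0.08), subunits of the ubiquitin ligases that mark p27 and other inhibitors for breakdown. The median log2 difference with the block was -0.07 for the CDK and cyclin list, -0.16 for RB and E2F, 0.04 for upstream regulators and -0.19 for turnover, against 0.01 over all genes.

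The RNA of the inhibitors also differed between libraries of 1 treatment. Over the 8 HCT116 libraries the log2 CPM of CDKN1A and CDKN1B had a Pearson r of -0.80, CDKN1A and CDKN1C 0.78, and CDKN2D 0.80 with both CDKN2A and CDKN2C. These 8 points share 2 treatments and 4 replicate numbers, and the values are a description. The profiles closest to CDKN1A, among 12093 genes with a mean of at least 100 counts, were RTN2, DIRAS1 and ARHGEF5 (r = 0.98 to 0.99). For CDKN1B they were LEPROT, IP6K2 and BTC (r = 0.98 to 0.99). For CDKN2B they were FKBP14, GPRIN3 and SLC36A1 (r = 0.98 to 0.99). Those of CDKN1C were REEP6, GALK1 and TMEM120B, and those of CDKN2A were RP11-745O10.4, CSNK2B-LY6G5B-1181 and COX6A1. Those of CDKN2C were FAM64A, RNF34 and METTL17, and those of CDKN2D were ZFYVE27, ATP6V0B and TERT.

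All 7 genes carried at least 1 HCT116 peak. Of the 11 peaks, 9 covered a coding start of the gene and 2 lay inside a gene away from one. CDKN1B had the widest, 13500 bp (chr12:12714301-12727800 of GRCh38), which covered the whole interval that the RNA table gives for the gene, and the start of APOLD1. At CDKN1A, peak 1 (chr6:36675451-36681300) covered the gene starts and that of DINOL, and peak 2 (chr6:36681601-36684900) was 83.6% intronic. CDKN2A had 3 peaks: peak 1 at the p16 start (chr9:21972001-21976200), peak 2 wholly within an intron (chr9:21978751-21979650), and peak 3 at the ARF start (chr9:21992701-21997800), which also holds the start of CDKN2B-AS1. The CDKN2B peak (chr9:22007551-22011000) covered its start. CDKN2C peak 1 (chr1:50958901-50961150) also held the start of FAF1 and peak 2 (chr1:50967601-50970900) further starts of CDKN2C, while the CDKN2D peak (chr19:10564501-10570350) held that of KRI1. CDKN1C had 1 peak (chr11:2883601-2886750). A peak with the starts of 2 genes cannot be assigned to either. The RNA of FAF1 (log2 0.01, edgeR adjusted p = 0.949 with the block) and KRI1 (log2 -0.03, edgeR adjusted p = 0.849) did not pass.

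**Figure D2:**
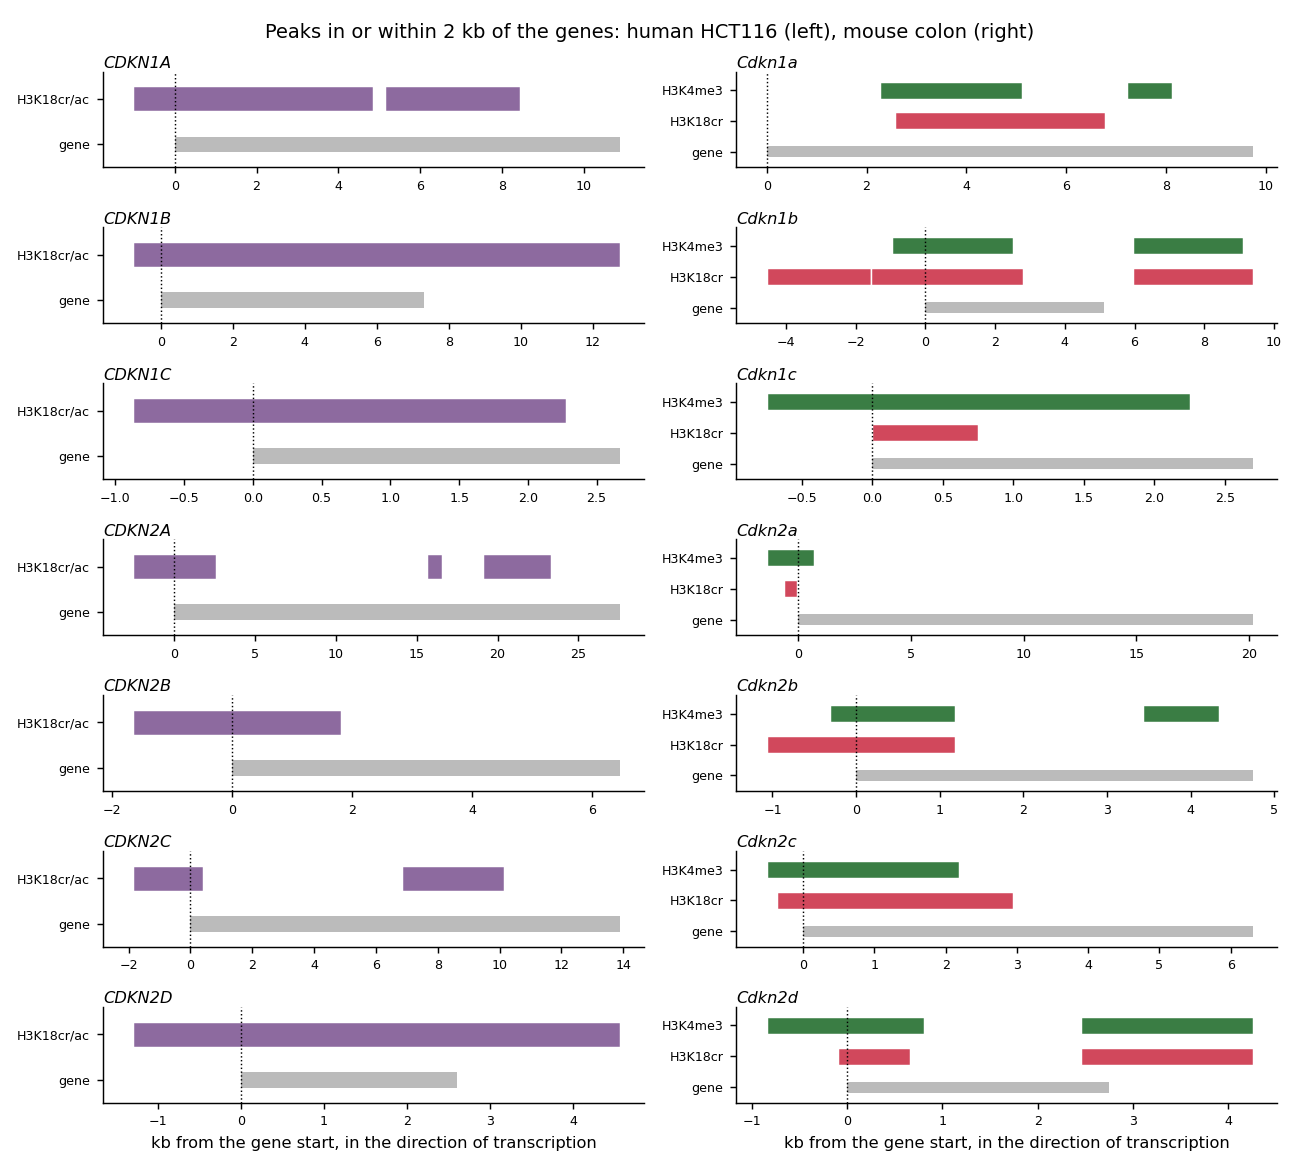
Peaks in or within 2 kb of each gene, drawn in kb from the start of the gene interval in the direction of transcription (horizontal axes; each panel has its own scale), for HCT116 cells on the left and mouse colon on the right. Grey bars are gene intervals and coloured bars peaks, with 1 peak list for both acyl marks in HCT116 cells. CDKN2A has 3 HCT116 peaks and 2 of them lie deep inside the gene, while the Cdkn2a peaks in colon lie at its start.

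With MS275 both marks had a lower mean log2 value at all 11 peaks in the deposited scaling, in which 70.6% of all peaks were lower for H3K18cr and 68.6% for H3K18ac. With each library centred on its median peak, all 11 were again below 0, against 50.9% and 53.3% of all peaks. Of the 11, 9 cover a coding start. In the deposited scaling, peaks within 1 kb of a coding start had medians of -0.54 for H3K18cr and -0.60 for H3K18ac, against -0.20 and -0.19 over all peaks. The shares given here are over all peaks and not over start peaks. H3K18cr passed the test at 7 of 11 peaks, against 23.0% of all 40026 peaks tested that were called lower and 0.232% called higher. The DMSO and MS275 libraries did not overlap at these 7 peaks, against 29.9% of all peaks. H3K18ac passed at 4 of 11, against 16.3% called lower and 0.264% higher of 40122 peaks, and its groups did not overlap at 2 of 11, against 23.1% of all peaks. All 11 peaks passed the filter on low reads for each mark. The number of H3K18ac calls depended on single libraries: 0 of 11 peaks were called without MS275 replicate 2, 1 without MS275 replicate 3, and 2 without DMSO replicate 2 or DMSO replicate 3. The calls over all 40122 peaks fell too. In these fits 1421, 1871, 3021 and 3642 peaks were called lower, in that order, against 6534 with all libraries. H3K18cr was called at 5 to 9 of the 11 peaks as each library was left out, and its calls at CDKN1B, at the ARF start of CDKN2A, at CDKN2C peak 1 and at CDKN2D held in each of these 6 fits. Of all 40026 peaks, 5899 to 12461 were called lower for H3K18cr in these fits, against 9210 with all libraries. The values below are reads scaled to the largest library by the authors, with 3 libraries per group, for replicates 1 to 3 in order. Such values are relative: each gives a peak's share of the reads of its library, with no external standard, so a lower value is a smaller share and does not show that a site lost the mark in absolute amount.

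CDKN1B, whose RNA was lower in each pair, had one of the lowest log2 differences of relative H3K18cr. CDKN2C peak 1 and the ARF start of CDKN2A lay within its SE. The CDKN1B peak also holds the start of APOLD1, so its marks cannot be assigned to either gene. This peak held 1547, 1495 and 1145 scaled reads of H3K18cr with DMSO and 661, 660.0 and 801 with MS275, with no overlap. The log2 difference was -0.97 ± 0.15 (SE; limma adjusted p = 5.0e-05), and 2.46% of all peaks had a lower value. H3K18ac at this peak went from 870.5, 1207 and 1819 to 739, 640.1 and 559 scaled reads, a log2 difference of -0.95 ± 0.24 (limma adjusted p = 0.0017). The DMSO libraries of H3K18ac were spread more widely than those of H3K18cr. Its call was lost without MS275 replicate 2 or MS275 replicate 3 (limma adjusted p = 0.0605 and 0.0799). The inputs held 261 scaled reads with DMSO and 252 with MS275.

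At the ARF start of CDKN2A (peak 3) H3K18cr was 487, 468 and 495 scaled reads with DMSO and 236, 244 and 325 with MS275. H3K18ac was 395, 544 and 685 scaled reads with DMSO and 296, 244 and 256 with MS275. For each mark the groups lay apart. The log2 differences were -0.86 ± 0.16 for H3K18cr (limma adjusted p = 0.00019) and -0.998 ± 0.25 for H3K18ac (limma adjusted p = 0.0016). This H3K18ac call was lost without MS275 replicate 2 (limma adjusted p = 0.0712). At the p16 start (peak 1) the differences were -0.59 ± 0.17 for H3K18cr (limma adjusted p = 0.0102) and -0.39 ± 0.25 for H3K18ac, which did not pass (limma adjusted p = 0.349). The H3K18cr call there was lost without DMSO replicate 2, MS275 replicate 1 or MS275 replicate 2 (limma adjusted p = 0.0753, 0.0783 and 0.0642). The intronic peak 2 held 28.2 scaled reads of H3K18cr on average with DMSO and 23.4 with MS275, and did not pass for either mark.

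CDKN1A, whose RNA was higher in each pair, had 460.0, 409 and 345 scaled reads of H3K18cr at its start peak with DMSO and 262, 255 and 285 with MS275. These groups did not overlap, and the log2 difference of the relative level was -0.59 ± 0.16 (limma adjusted p = 0.0054). Without DMSO replicate 1, the highest library, it was -0.49 and did not pass (limma adjusted p = 0.0573). H3K18ac was 289, 392 and 469 with DMSO and 289.5, 239 and 235 with MS275. Here replicate 1 of the DMSO libraries lay among the MS275 values, and the difference of -0.57 ± 0.25 did not pass (limma adjusted p = 0.111), although it did without that library (-0.76, limma adjusted p = 0.0149). The single input libraries held 108 scaled reads at this peak with DMSO and 82.1 with MS275, and the log2 ratio of H3K18cr to input was 1.88 with DMSO and 1.69 with MS275. The intronic peak 2 of CDKN1A had log2 differences of -0.34 ± 0.19 and -0.46 ± 0.25, neither of which passed. Its H3K18cr passed without DMSO replicate 3 (-0.54, limma adjusted p = 0.0098) and was smallest without DMSO replicate 2 (-0.23, limma adjusted p = 0.611).

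CDKN2B, with the largest RNA difference, showed no change of either mark that passed. Its peak held 135, 123 and 155 scaled reads of H3K18cr with DMSO and 83.2, 96.3 and 154 with MS275. With MS275, replicates 1 and 2 lay below the DMSO range and replicate 3 was level with the highest DMSO library. H3K18ac was 112, 131 and 166 scaled reads with DMSO and 129.8, 94.0 and 117 with MS275, and the groups overlapped. The log2 differences were -0.35 ± 0.20 (limma adjusted p = 0.234) and -0.26 ± 0.25 (limma adjusted p = 0.607). Without MS275 replicate 3 the H3K18cr difference was -0.61 and passed (limma adjusted p = 0.0230). Without MS275 replicate 1 it was -0.17 and did not (limma adjusted p = 0.722). The H3K18ac difference ran from -0.39 to -0.11 as each library was left out and did not pass in any of these fits. The RNA and ChIP libraries are separate samples, so their replicate numbers cannot be joined.

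**Figure D3:**
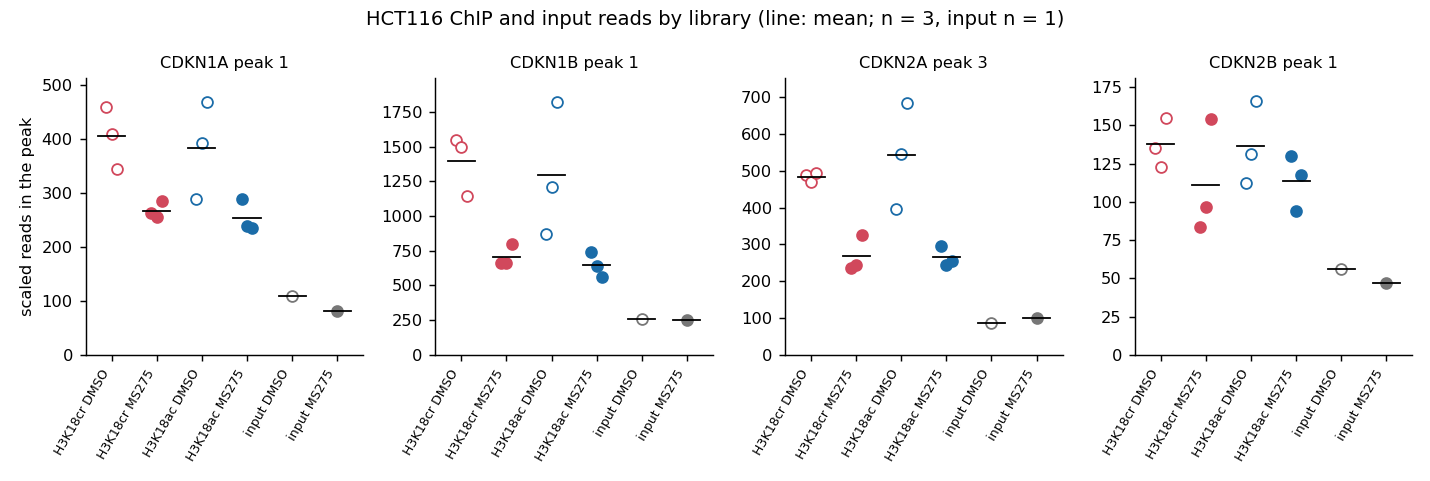
Scaled reads (vertical axes from 0) in the start peaks of CDKN1A, CDKN1B, CDKN2A (ARF start, peak 3) and CDKN2B for each HCT116 library of H3K18cr (red), H3K18ac (blue) and input (grey); open points are DMSO, filled points MS275 and lines means. Groups lie apart for both marks at CDKN1B and CDKN2A and overlap for both at CDKN2B.

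Of the other start peaks, CDKN2C peak 1 had a lower relative level with MS275 in H3K18cr (-0.91 ± 0.18, limma adjusted p = 0.00045) and in H3K18ac (-0.82 ± 0.25, limma adjusted p = 0.0113). The inputs held 45.6 scaled reads there with DMSO and 28.3 with MS275, and the log2 ratio of H3K18cr to input was 1.69 with DMSO and 1.46 with MS275. The CDKN2D peak was relatively lower in H3K18cr (-0.73 ± 0.17, limma adjusted p = 0.0015) and H3K18ac (-0.74 ± 0.25, limma adjusted p = 0.0266), with an input of 83.4 and 112 scaled reads. The H3K18ac calls at CDKN2C peak 1 and CDKN2D were each lost without DMSO replicate 2, DMSO replicate 3, MS275 replicate 2 or MS275 replicate 3. Their limma adjusted p was then 0.0611 to 0.331, and the CDKN2D difference was -0.47 without DMSO replicate 3. CDKN1C was relatively lower in H3K18cr (-0.55 ± 0.18, limma adjusted p = 0.0232), and its H3K18ac difference of -0.35 ± 0.25 did not pass. The H3K18cr call at CDKN1C was lost without DMSO replicate 1, DMSO replicate 2, MS275 replicate 2 or MS275 replicate 3, with limma adjusted p from 0.0579 to 0.157. CDKN2C peak 2 had -0.34 ± 0.19 and -0.49 ± 0.25, neither of which passed. Its H3K18cr passed without DMSO replicate 3 (-0.61, limma adjusted p = 0.0018) and was smallest without DMSO replicate 2 (-0.19, limma adjusted p = 0.667). Its H3K18ac ran from -0.65 to -0.29 as each library was left out and did not pass in any of these fits. Relative to input, H3K18cr was lower with MS275 at 10 of 11 peaks and H3K18ac at 9 of 11; the input was 1 library per treatment and was not tested.

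The median log2 difference over the 11 peaks was -0.59 for H3K18cr and -0.49 for H3K18ac. Over all peaks it was -0.20 and -0.19, and over peaks within 1 kb of a coding start -0.54 and -0.60. The H3K18cr libraries had 3197649 to 5730094 reads in peaks with DMSO and 2755164 to 3530311 with MS275. When each library was centred on its median peak and limma was kept, the median over the 11 peaks was -0.39 for H3K18cr and -0.34 for H3K18ac. H3K18cr was then called lower at 5 of the 11 peaks, with CDKN1C and the p16 start of CDKN2A lost, against 13.5% of all peaks lower (5410) and 1.22% higher (487), where the deposited scaling gave 9210 and 93. H3K18ac was called at 5 of the 11, with CDKN1A peak 1 added, against 20% lower (8020) and 1.9% higher (763), where the deposited scaling gave 6534 and 106. Another alternative changed the test and the scaling together, to edgeR with TMM factors on the recovered reads, and the effects of the 2 changes cannot be told apart in it. It gave a median of 0.04 and 0.06 over all peaks and of -0.34 and -0.25 over the 11 peaks. H3K18cr was called lower there at 5 of the 11 peaks, again without CDKN1C and the p16 start, against 11.5% of all peaks lower (4605) and 2.26% higher (906). H3K18ac was called at 4, against 16.6% lower (6678) and 4.6% higher (1846), and its difference was slightly positive at CDKN2B (0.01 ± 0.15) and at CDKN2A peak 2 (0.14 ± 0.30).

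The difference between the marks in the effect of MS275 was tested directly with limma. It was between -0.21 and 0.15 (log2, H3K18cr minus H3K18ac) over the 11 peaks, with SE from 0.29 to 0.42. None of the 11 passed (0 called, 0 with an unadjusted p under 0.05), nor did any of the 40266 peaks (0.0%), 739 of which had an unadjusted p under 0.05 (1.84%).

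**Figure D4:**
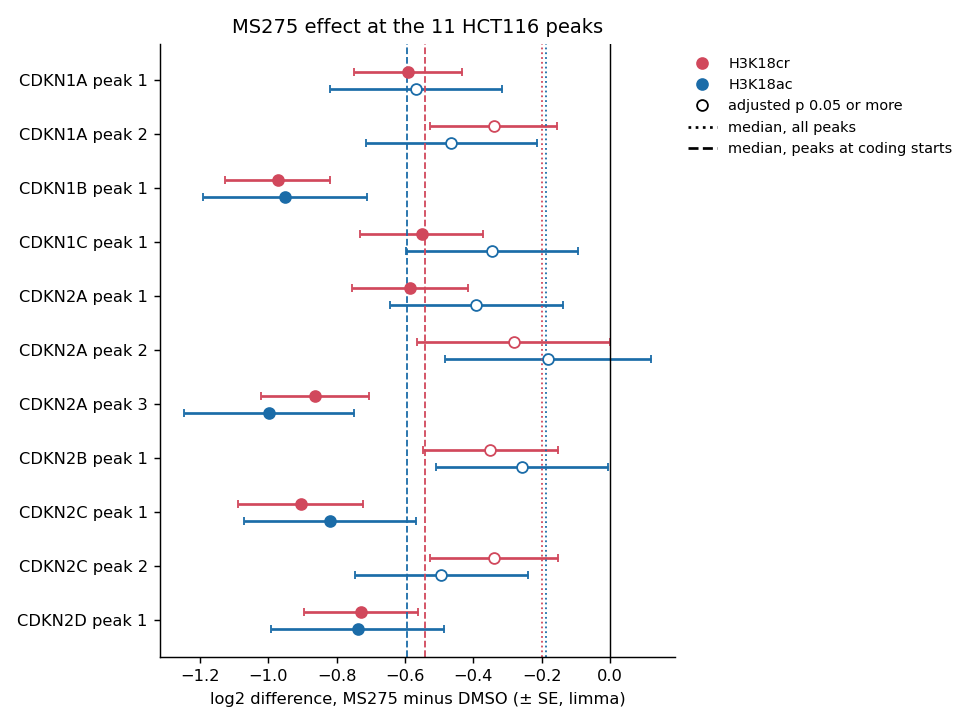
Log2 difference between MS275 and DMSO (horizontal axis) at the 11 HCT116 peaks for H3K18cr (red) and H3K18ac (blue), with bars of 1 SE from limma; filled points passed an adjusted p of 0.05. Dotted lines are the medians over all peaks and dashed lines those over peaks near coding starts. All 22 values are below 0, from -0.998 to -0.18.

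In mouse colon epithelium 6 of the 7 genes were detected. Per kb of exon Cdkn1a was the highest at 36.1 ± 7.60 CPM (SD, n = 3), with 41.1, 39.8 and 27.3 in the 3 libraries. Cdkn2b followed at 21.7 ± 7.29 (27.7, 23.9 and 13.6) and Cdkn1b at 19.2 ± 2.46 (17.4, 18.2 and 22.0), and each overlapped its neighbour. Cdkn2d (6.85 ± 0.883), Cdkn2c (6.58 ± 0.821) and Cdkn1c (6.00 ± 1.86) overlapped each other and lay below the first 3. Library 3 had the lowest Cdkn1a, Cdkn2b and Cdkn1c and the highest Cdkn1b. Dividing by the whole gene interval in place of the exons put Cdkn1b (17.1) above Cdkn1a (13.1) and Cdkn2b (6.33).

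Cdkn2a had 0 counts in all 3 libraries, where 3 counts would be 0.280 to 0.367 CPM. The depth of 8166406 to 10707901 counts per library sets this limit. In HCT116 cells the same gene was the second of the 7 by level. Cdkn2b, the lowest of the 7 in DMSO-treated HCT116 cells, was among the first 3 in colon. The organisms and libraries differ, and this was not tested.

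Colon H3K18cr was found near every one of the 7 genes, and 9 of the 10 H3K18cr peaks overlapped an H3K4me3 peak of the same gene. Ratios are log2 of ChIP over input with 1 read added to each, and no test was made with 2 libraries. These ratios depend on the deposited scaling to the largest library: when each library was divided by its own reads in all peaks, the median over all peaks fell below 0, and 4 of the 10 H3K18cr means and 4 of the 11 H3K4me3 means turned negative. Cdkn2a H3K18cr was among them (-0.45), with Cdkn1c and both Cdkn2d peaks. The Cdkn1a peak (chr17:29093551-29097750 of GRCm38), which covers 2 coding starts inside the gene interval, had 348 and 699 scaled reads and log2 ratios of 1.78 and 2.09, higher on average than 93.9% of all peaks. At Cdkn1b, peak 2 over the start (chr6:134918851-134923200) had 1.73 and 2.05, and peak 3 (chr6:134926351-134929800), downstream of the gene end and over the start of Lockd, had 1.98 and 2.07. Peak 1 of Cdkn1b (chr6:134915851-134918850), upstream and touching peak 2, had 1.24 and 1.86 and was the 1 peak without H3K4me3. The Cdkn2b peak (chr4:89309851-89312100) had 1.44 and 2.11.

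The lowest mean H3K18cr ratio was at Cdkn2a, in a peak of 600 bp just before the gene start (chr4:89294701-89295300). It held 30.2 and 50.3 scaled reads, with ratios of 0.72 and 1.20, and 8.95% of all peaks had a lower mean ratio. The ranges overlapped: in library 1 the Cdkn1c peak (0.55) and both Cdkn2d peaks (0.68 and 0.47) were lower than Cdkn2a. H3K4me3 at the same start (chr4:89293951-89296050) was 214, 415 and 567 scaled reads against 39.0 in the input, with log2 ratios of 2.43, 3.38 and 3.83. Its mean ratio was higher than that of 94.4% of H3K4me3 peaks. The HCT116 peak at the ARF start of CDKN2A had a log2 ratio of H3K18cr to input of 2.48 ± 0.041 (SD, n = 3) with DMSO.

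The H3K4me3 ratio was highest at Cdkn2c (3.24 ± 0.609, SD, n = 3), Cdkn2a (3.21 ± 0.716) and Cdkn1a peak 1 (3.12 ± 0.724), and lowest at Cdkn2b peak 1 inside the gene (1.28 ± 0.357). The Cdkn2b start (peak 2) had 2.44 ± 0.635. Cdkn1c had 2.68 ± 0.461 over a peak of 3000 bp, while its H3K18cr peak was 750 bp wide with ratios of 0.55 and 1.83 in the 2 libraries. Both peaks near Cdkn2d carried both marks, with H3K18cr ratios of 0.47 to 1.61. Peak 1, at the end of Cdkn2d, holds the start of Kri1 and no start of Cdkn2d, so its marks cannot be assigned to Cdkn2d. H3K4me3 ratios were lowest in library 1 at each start peak named here. That library also had the fewest scaled reads in all peaks, 2541429 against 4074368 and 5230629 in libraries 2 and 3. The part of this in the ratios was not tested. Above the median ratio of all peaks were 6 of 10 H3K18cr peaks (median 1.31) and 9 of 11 H3K4me3 peaks (median 1.65).

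**Figure D5:**
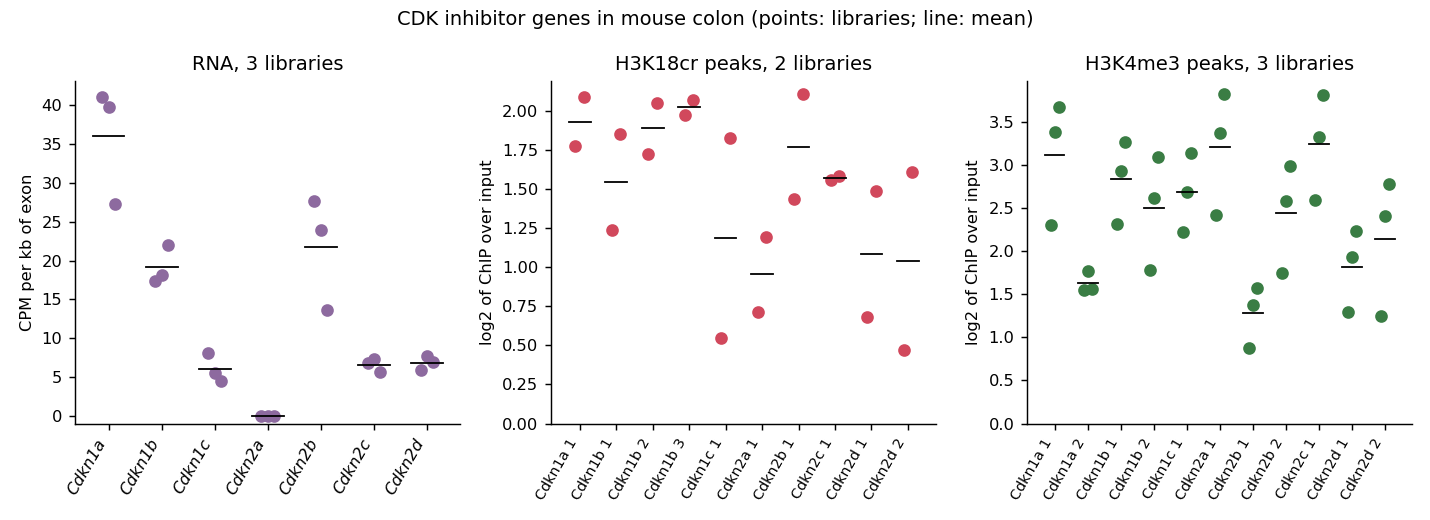
The 7 genes in mouse colon epithelium: RNA in CPM per kb of exon, and log2 ratios of ChIP to input at each H3K18cr and H3K4me3 peak, named by gene and peak number. Points are libraries and lines means. Cdkn2a has an RNA level of 0, an H3K4me3 ratio of 3.21 and the lowest mean H3K18cr ratio, 0.96, within the spread of the Cdkn1c and Cdkn2d peaks.

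The cell types were checked by markers. All 8 epithelial markers had counts in colon, where they summed to 8299 to 9626 CPM, against 22.8 to 37.8 CPM for 6 immune markers and 18.7 to 24.8 CPM for 6 stromal markers. Ptprc had 13.8 to 22.7 CPM and Cd3e 3.78 to 9.66 CPM, so the colon values include some immune RNA. In HCT116 cells the epithelial sum was 3458 to 5174 CPM with DMSO and 4477 to 6039 CPM with MS275, and VIL1 was at 0 to 1.44 CPM. The stromal sum was 9.61 to 10.7 CPM with DMSO and 16.5 to 20.6 CPM with MS275, led by COL1A1 and ACTA2, while COL3A1 stayed at or below 0.112 CPM; the line holds no other cells by its label, and the part of these genes in the RNA differences was not tested.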

How the data were processed

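RNA-seq and ChIP-seq tables of 33 libraries were analysed. RNA values are counts per gene, deposited without normalization. Peak values are signal per peak: the authors scaled the reads of each library under MACS peaks to the largest library. The HCT116 peak table was deposited as log2 of these scaled reads. Each table has 1 peak list, and which libraries entered peak calling is not given in the sources used here. Per the submitters' processing notes, Trim Galore 0.4.2, Bowtie2 2.2.5 and TopHat2 2.0.12 were used with GRCh38 and GRCm38, while the methods name HiSat2 for mouse RNA; which mapper served HCT116 RNA, and whether counting used strand, is not given in the sources used here. Whole reads were recovered for 100.0% of peak values (within 0.05 of a whole number).

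RNA was tested with edgeR 4.0.16 (filterByExpr, TMM, quasi-likelihood; R 4.3.3) and Benjamini-Hochberg adjustment at 0.05, with DESeq2 1.42.0 as an alternative. Same-numbered RNA libraries deviated together (r = 0.226, 0.151, 0.433 and 0.46 over 14961 genes; pairs of other numbers ran from -0.418 to 0.239, and DMSO 2 with MS275 4 and DMSO 4 with MS275 2, at 0.239 and 0.219, exceeded the 0.151 of number 2). Each same-number r was over 0.1, so same-numbered libraries count as pairs, and results with a replicate block stand beside those without. Peaks with at least 10 scaled reads in at least 3 libraries were tested with limma 3.58.1 on the deposited log2 of scaled reads. Exons and starts are those of GENCODE 44 and M21. Colon ChIP was set beside input as ratios, and this difference was not tested. Methods were tested on simulated data.

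The genes and gene lists were chosen with earlier results of these data known. Named genes were the 7 inhibitors, the 2 genes of lowest p in each list and fit, and the 3 genes of highest correlation with each inhibitor. Genes that overlap an inhibitor, lie within 2 kb of it or start inside one of its peaks were also named, as were cell type markers. A result on 1 upstream regulator is not reported here.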

Additional observations from a re-analysis of the deposited data

Results flagged for a closer look

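The CDKN1A level of MS275 replicate 3 in HCT116 RNA, 294.57 CPM, stood further from the other 3 MS275 libraries (205 to 215 CPM) than Dixon's 95% limit for 4 samples allows. It was the 1 case among 14 groups of 4 libraries examined, a test that chance meets in about 1 group in 20. DMSO replicate 3 was also the highest of its group, at 227 CPM. Without MS275 replicate 3 the log2 difference of CDKN1A was 0.15, against 0.28 with all libraries, and neither passed edgeR's test without the block.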

How the results depend on the processing

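With the RNA replicate block 3 of the 7 genes were called, against 0 without it, and 1 to 3 when both libraries of a number were left out of the block fit. Over all genes these fits called 2151 with the block, 1 without it, and 968 to 2584 with a number left out. No RNA fit without the block called any of the 7, whichever library was left out (0 to 0). With 1 library left out, these fits called at most 1 gene in all. For the peaks the same number did not mark a pair (r = 0.108, 0.0729 and 0.229 for H3K18cr; -0.207, 0.0464 and -0.134 for H3K18ac). With a replicate block H3K18cr was called at 7 of 11 peaks, as without it (10448 of all 40026 peaks lower with the block, 9210 without). H3K18ac was called at 0 in place of 4 (805 of all 40122 peaks lower with the block, 6534 without). Leaving out 1 library each gave 5 to 9 H3K18cr calls (5899 to 12461 of all peaks lower) and 0 to 5 H3K18ac calls (1421 to 9186 lower). The test of H3K18cr against H3K18ac called 0 peaks in each setting run.

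Log2 differences near 0 turned. With 1 RNA library left out, CDKN1C ran from -0.077 (without MS275 replicate 3) to 0.13, CDKN2A from -0.14 to 0.041 (without MS275 replicate 4; 0.0061 without DMSO replicate 3) and CDKN2C from -0.18 to 0.036 (without MS275 replicate 4). With the block and without number 3, CDKN1C was at -0.011. CDKN2D kept its sign, and ran without the block from 0.032 (without MS275 replicate 3) to 0.39 (without MS275 replicate 4). H3K18ac at CDKN2A peak 2 ran from -0.51 to 0.033 (without MS275 replicate 2) and was 0.14 with TMM, and at CDKN2B it was 0.012 with TMM. The cause was not tested.

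In colon, dividing each library by its own reads gave a median log2 ratio over the peaks of 0.16 for H3K18cr, in place of 1.59, and of 0.22 for H3K4me3, in place of 2.50, as that scaling does by construction. It turned H3K18cr at Cdkn1c (-0.22), Cdkn2a (-0.45) and Cdkn2d (-0.35 and -0.38), and H3K4me3 at Cdkn1a peak 2 (-0.59), Cdkn2b peak 1 (-0.97) and Cdkn2d (-0.46 and -0.12). With the whole gene interval as length, the median RNA level of the 7 genes in a library, averaged over the 3 libraries, was 4.51 CPM per kb in place of 7.57.

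Depth limits the smallest peaks: CDKN2A peak 2 held 10 to 30 reads per ChIP library. Inputs were single libraries in HCT116 cells.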
